A study of Homo sapiens with 16 samples.

Results

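Superoxide dismutases convert superoxide to hydrogen peroxide, and catalase and the glutathione peroxidases remove the peroxides. The 9 genes described here are the superoxide dismutases SOD1, SOD2 and SOD3, catalase (CAT) and the glutathione peroxidases GPX1, GPX3, GPX4, GPX7 and GPX8. They belong to these families and were chosen, with earlier results of these data known, out of 34451 genes, of which 19356 are protein-coding. Expression is given as TPM (transcript abundance scaled to a common total per library), summed over the transcripts of a gene and already scaled for transcript length. The remaining family members GPX2, GPX5 and GPX6 were at most 0.621 TPM in any library and are not described further.

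RNA was sequenced from 4 isogenic stages of the human fibroblast cell line BJ. The primary stage is the Primary BJ cell line, the immortalized stage carries the telomerase gene (BJ hTERT+), the transformed stage also carries SV40 (BJ hTERT+ SV40+), and the metastasizing stage carries a mutated Ras in addition (BJ hTERT+ SV40+ Ras-G12V). Every stage was kept for 6 passages at atmospheric oxygen or at 3% oxygen, which the study treats as moderate hypoxia, and each of the 8 groups holds 2 libraries, a and b, from duplicate plates. Each stage is a single line with one more introduced gene than the stage before, so that the introduced gene and the history of the line cannot be told apart, and p-values measure the spread between parallel plates.

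Superoxide arises mainly where electrons leak to oxygen, in mitochondria and at oxidases. SOD1 works in the cytosol with copper and zinc, SOD2 in the mitochondrial matrix with manganese, and SOD3 is secreted and binds the extracellular matrix. Hydrogen peroxide is then split by catalase in peroxisomes or reduced with thiols by the peroxidases, of which GPX1, GPX3 and GPX4 carry selenocysteine at the active site, whereas GPX7 and GPX8 carry cysteine and reside in the endoplasmic reticulum.

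Libraries were compared with limma on log2(TPM + 0.5), a scale on which the change of genes with low values is understated, with 1 fit over the 8 groups. A gene was called at an adjusted p (Benjamini-Hochberg over all protein-coding genes tested) under 0.01 and a change of more than 2-fold. As a check of the labels, TERT was at most 0.543 TPM in the 4 primary libraries and between 31.6 and 193 TPM in the 12 others. All 8 fibroblast markers examined (COL1A1, COL1A2, COL3A1, FN1, VIM, THY1, PDGFRB and DCN) were above 1 TPM in every library, with DCN lowest at 2.23 TPM in metastasizing replicate a at 3% oxygen, and their summed level ranged from 4484 to 20441 TPM. Of the markers of other cell types, PTPRC, EPCAM, CDH1, KRT5 and KRT14 stayed at or under 2.80 TPM, PECAM1 had no matched transcript, and CD68 ranged from 42.4 to 162 TPM. Metastasizing cells at 3% oxygen stood apart in replicate error: 11.0% of genes differed more than 2-fold between their 2 libraries, against 1.83% to 4.08% in the other 7 groups. The reads behind each value are unknown, since TPM keeps no depth. The median change over all genes tested lay between -0.13 and 0.22 on the log2 scale over the 10 comparisons of groups.

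SOD2 and GPX7 moved most over the model and in opposite directions when primary cells were compared with immortalized cells, whereas SOD1 and CAT stayed within a range of less than 2-fold between group means. The highest group mean exceeded the lowest by 52.8-fold for GPX7 and 38.4-fold for SOD2, by 7.05-fold for GPX4, 6.60-fold for SOD3, 3.24-fold for GPX3, 2.91-fold for GPX1 and 2.57-fold for GPX8, and by 1.92-fold for SOD1 and 1.79-fold for CAT. With transcripts of at least 400 nt alone, an alternative added after the data were seen, the ratio was 18.9 for SOD3 and 3.97 for GPX4. By the median over the 16 libraries, GPX4 (294 TPM), GPX8 (211 TPM) and SOD1 (193 TPM) were the most abundant, and GPX3 (5.35 TPM) and SOD3 (2.91 TPM) the least. Over 13 comparisons, 15 of 116 tests of a member were called, 2 of 35 between oxygen levels, 11 of 54 between stages and 2 of 27 on the difference of oxygen effects between stages. Of all genes tested, 4.91% to 7.66% were called between oxygen levels, 4.12% to 24.3% between stages and 1.86% to 12.0% on the differences.

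**Figure D1:**
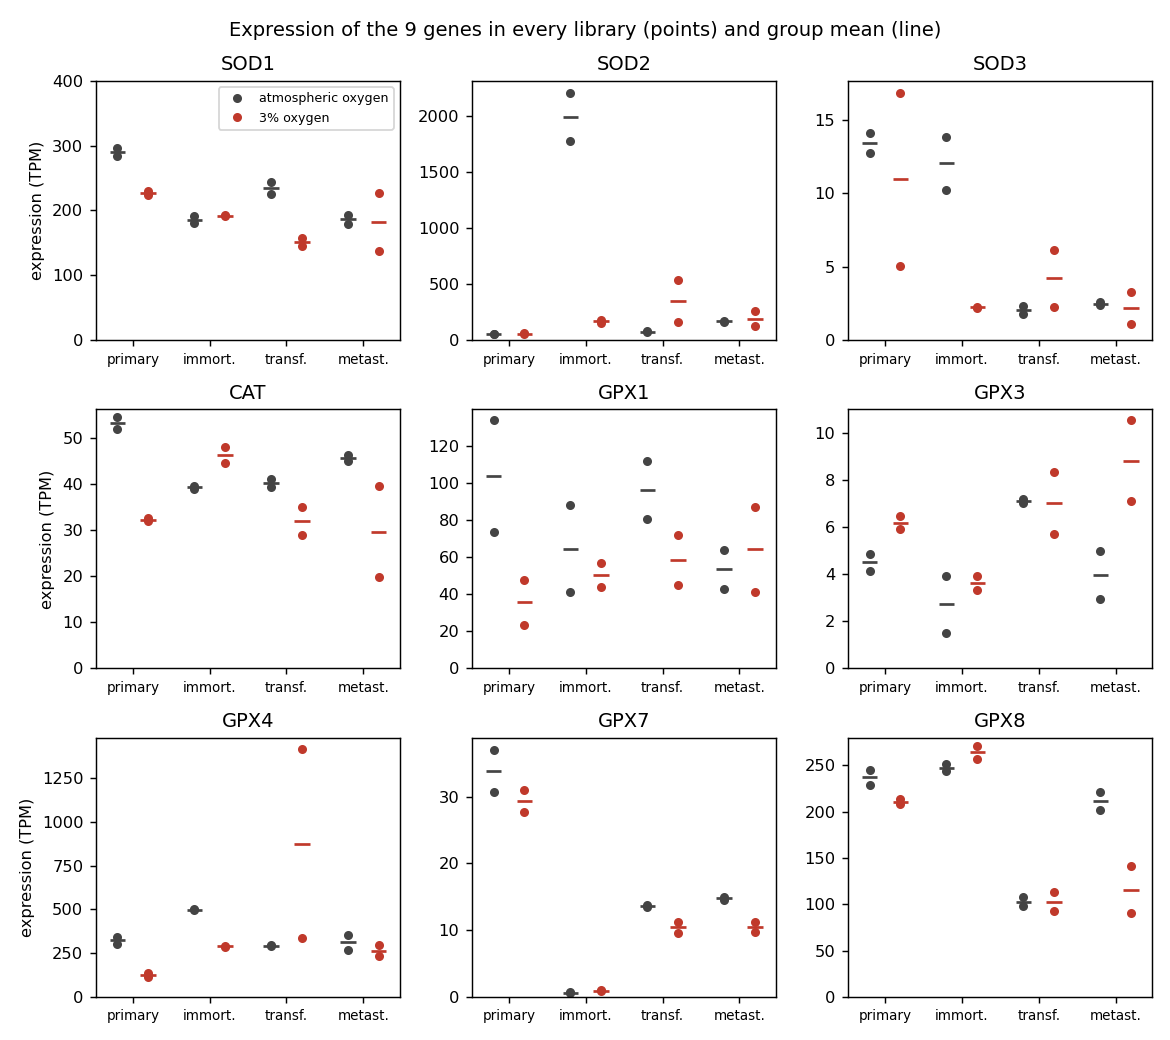
Expression of each gene in TPM (vertical axis, linear, from 0) for the 4 stages (horizontal axis), with atmospheric oxygen in grey and 3% oxygen in red; points are the 2 libraries of a group and lines their mean. SOD2 stands at 2208 and 1780.0 TPM in immortalized cells at atmospheric oxygen, GPX7 is near 0 in all 4 immortalized libraries, and a single transformed library at 3% oxygen sets the highest GPX4 value.

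The comparison of 3% with atmospheric oxygen within a stage asks how each stage adapts to moderate hypoxia. SOD2 was the only member called, lower at 3% oxygen in immortalized cells and higher at 3% oxygen in transformed cells. In primary cells 0 of 9 members were called, against 5.30% of all genes tested. In the limma fit 3 had an unadjusted p under 0.05, against 39.0% of all genes tested. In immortalized cells 1 of 8 was called against a background of 4.91%, and GPX7 was not tested there because both group means were under 1 TPM. In transformed cells 1 of 9 was called against 7.48%, and in metastasizing cells 0 of 9 against 7.66%, with 4 members under an unadjusted p of 0.05 (41.0% of all genes). The 2 libraries at one oxygen level did not overlap those at the other for 7 of 9 members in primary cells (67.7% of all genes tested), 5 of 8 in immortalized cells (72.8%), 6 of 9 in transformed cells (72.5%) and 4 of 9 in metastasizing cells (58.7%), shares that lie near the background.

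**Figure D2:**
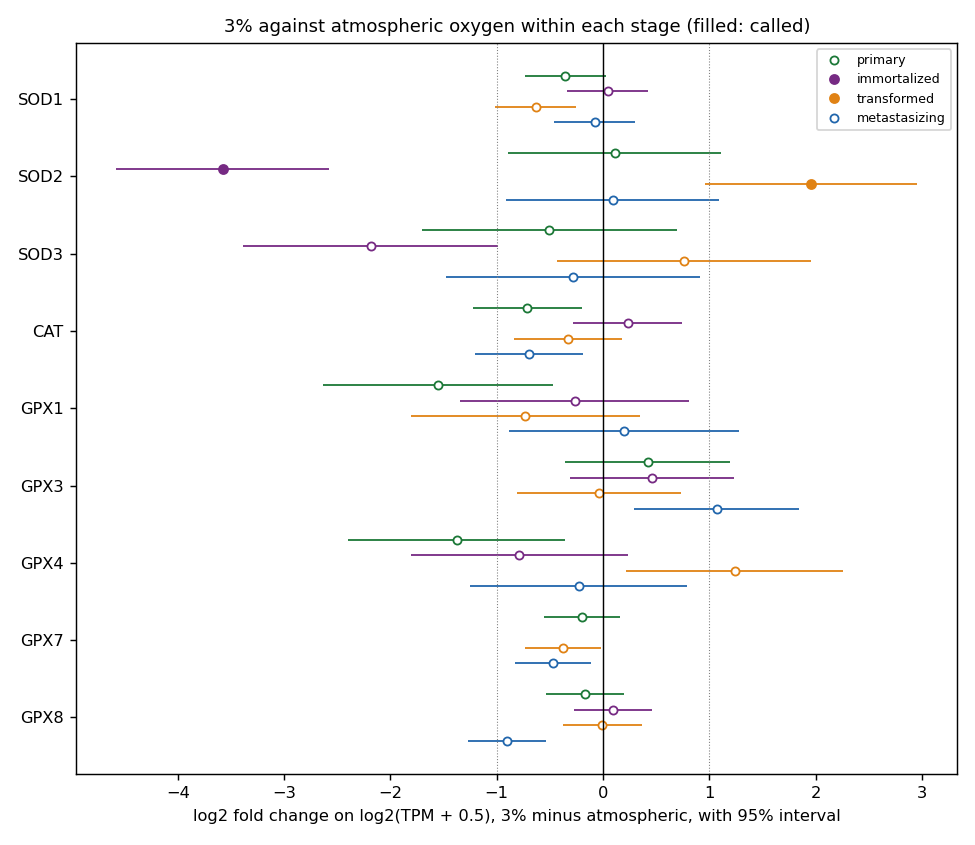
Log2 fold change between 3% and atmospheric oxygen (horizontal axis, on log2(TPM + 0.5), with 95% interval) for each gene (vertical axis) in the 4 stages; filled points were called and dotted lines mark a 2-fold change. SOD2 in immortalized cells (-3.58) and in transformed cells (1.96) are the filled points, on opposite sides of 0.

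The steps from one stage to the next ask what changes with each introduced gene. Most calls fell on the steps into and out of the immortalized stage, where the shares of all genes called were also the highest. From primary to immortalized cells 2 of 9 members were called at atmospheric oxygen (background 12.2%) and 1 of 9 at 3% oxygen (9.23%). From immortalized to transformed cells 5 of 9 were called at atmospheric oxygen (24.3%) and 2 of 9 at 3% oxygen (16.3%). From transformed to metastasizing cells 1 of 9 was called at atmospheric oxygen (4.12%) and 0 of 9 at 3% oxygen (5.92%), where 1 member, GPX4, had an unadjusted p under 0.05 (39.7% of all genes). GPX7 was called on all 4 steps that enter or leave the immortalized stage, SOD2 on the 2 of them at atmospheric oxygen and GPX8 on the 2 that lead to the transformed stage.

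**Figure D3:**
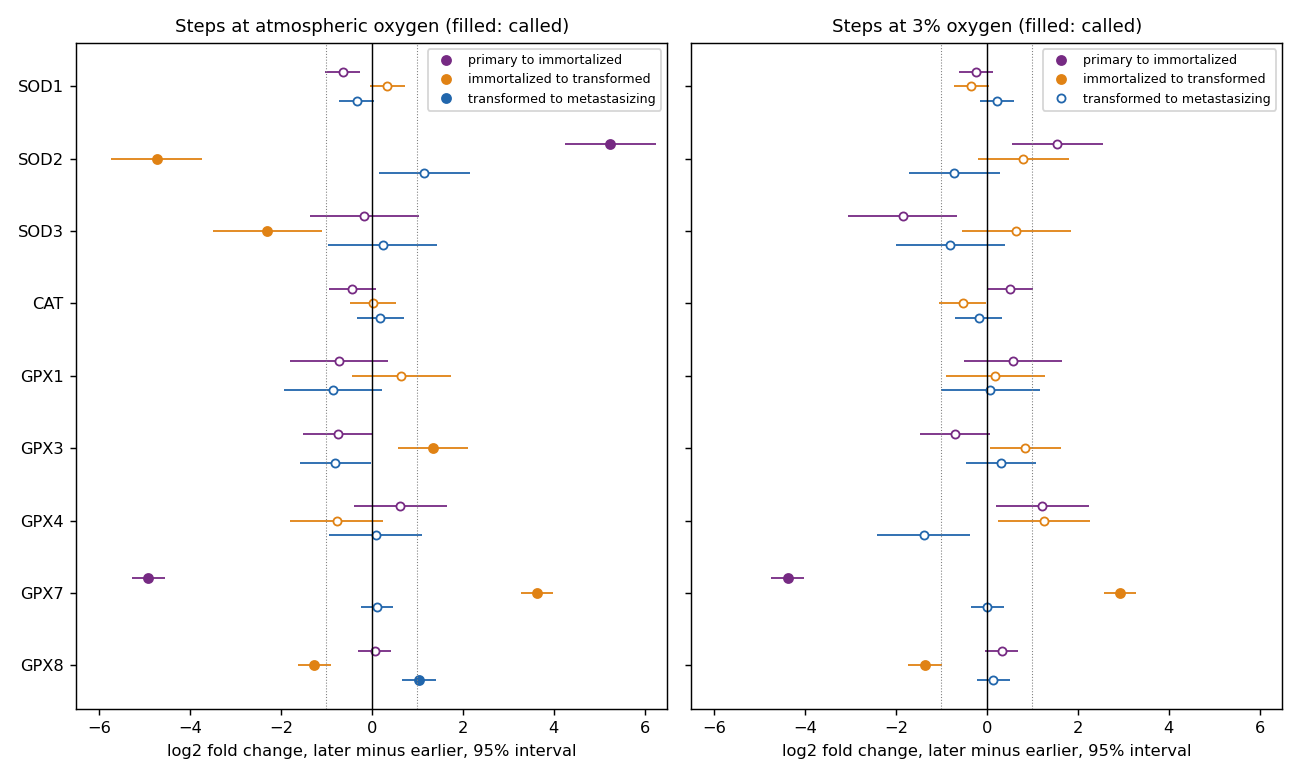
Log2 fold change of each gene (vertical axis) on the 3 steps of the model, later minus earlier stage (horizontal axis, with 95% interval), at atmospheric oxygen (left) and 3% oxygen (right); filled points were called. GPX7 lies at -4.91 and -4.38 on the step from primary to immortalized cells, and SOD2 at 5.24 on that step at atmospheric oxygen.

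SOD1, the cytosolic copper-zinc enzyme (chromosome 21, 33031979 to 33041244 of GRCh37), was not called in any comparison. In primary cells it was 297 and 284 TPM at atmospheric oxygen and 223 and 230.5 TPM at 3% oxygen. In immortalized cells it was 179.9 and 192 TPM and 192 and 191 TPM at the same 2 levels, and in transformed cells 245 and 225 TPM and 145 and 158 TPM. Both 3% libraries thus lay below both atmospheric libraries in primary and in transformed cells, whereas the ranges overlapped in immortalized cells. In metastasizing cells the values were 193 and 179 TPM at atmospheric oxygen and 137 and 227 TPM at 3% oxygen, where the 2 libraries enclosed the atmospheric ones. The oxygen difference in transformed cells, -0.63 ± 0.17 (SE), adjusted p = 0.0157, and the step from primary to immortalized cells at atmospheric oxygen, -0.64 ± 0.17 (SE), adjusted p = 0.0135, were both under 2-fold and over the adjusted p threshold. Of the 7 neighbouring pairs of groups in the order of SOD1 means, 5 overlapped.

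SOD2, the mitochondrial manganese enzyme (chromosome 6, 160090101 to 160183561 of GRCh37, minus strand), was highest in immortalized cells at atmospheric oxygen, where it was 2208 and 1780.0 TPM in the 2 libraries (1994 ± 302 TPM, SD, n = 2). At 3% oxygen the same cells had 179 and 153 TPM, and no library of any other group exceeded 533 TPM. SOD2 was lower at 3% oxygen in immortalized cells, by 11.9-fold (log2 fold change -3.58 ± 0.45 (SE), adjusted p = 0.000402), and the call held in all 12 alternative fits and without any one library. In primary cells the values were 51.3 and 52.4 TPM at atmospheric oxygen and 59.0 and 53.3 TPM at 3% oxygen, a difference of 0.11 with a 95% interval of -0.89 to 1.11. CD68, from the list of other cell type markers, was also highest in immortalized cells at atmospheric oxygen (154 and 162 TPM, 84.5 and 78.1 TPM at 3% oxygen), while PTPRC was at most 1.32 TPM in any library. The part of these values in the SOD2 result was not tested.

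In transformed cells the direction was the opposite: 69.9 and 78.4 TPM at atmospheric oxygen against 157 and 533 TPM at 3% oxygen. Both 3% libraries were above both atmospheric ones, but they differed 3.40-fold from each other. The difference, 1.96 ± 0.45 (SE), adjusted p = 0.00718, was called in 7 of 11 alternative fits. Without replicate a at 3% oxygen it was 2.84 (adjusted p = 0.000464), and without replicate b, the library with the higher value, 1.08, adjusted p = 0.0388. It also missed the threshold without replicate a (1.88, adjusted p = 0.047) or replicate b (2.04, adjusted p = 0.0348) at atmospheric oxygen, where a single library then stood for the group. In metastasizing cells the 2 libraries at 3% oxygen (121 and 256 TPM) lay on either side of those at atmospheric oxygen (171 and 159 TPM), and the difference was 0.09 with a 95% interval of -0.91 to 1.09.

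The oxygen effects themselves differed between stages. The effect in immortalized cells was lower than that in primary cells by 3.69 on the log2 scale (adjusted p = 0.00702, 1 of 9 members against 1.86% of all genes), a call that was lost on leaving out any one of the 8 libraries (adjusted p from 0.0212 to 0.0355). The effect in transformed cells exceeded that in immortalized cells by 5.54 (adjusted p = 0.000159, 1 of 9 members against 12.0%), and this call held without each of the 8 libraries in turn. Both differences use the same immortalized libraries. Between metastasizing and transformed cells the difference was -1.87 ± 0.64 (SE), adjusted p = 0.0542, and 0 of 9 members were called against 8.47% of all genes, with 5 members under an unadjusted p of 0.05 (38.5% of all genes). Without transformed replicate a at 3% oxygen the SOD2 value was -2.75, adjusted p = 0.00213, and GPX4 was then also called (-2.51, adjusted p = 0.000125).

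Along the model at atmospheric oxygen, SOD2 rose by 5.24 ± 0.45 (SE, log2, adjusted p = 9.57e-06) from primary to immortalized cells and fell by 4.73 (adjusted p = 7.18e-06) from immortalized to transformed cells. Both calls held in every alternative fit and without any one library. The step to metastasizing cells was 1.15 ± 0.45 (SE), adjusted p = 0.101, and was called only in the fit of these 2 groups alone (1.15, adjusted p = 0.00701). At 3% oxygen the step from primary to immortalized cells was 1.55 ± 0.45 (SE), adjusted p = 0.0246, with both immortalized libraries above both primary ones, and it was called only in the fit of the 2 groups alone (1.55, adjusted p = 0.00372). As a share of summed SOD1, SOD2 and SOD3 expression, SOD2 made up 14.2% to 15.0% in primary cells at atmospheric oxygen and 89.6% to 92.1% in immortalized cells at that oxygen level. At 3% oxygen the immortalized share was 44.2% to 47.9%. The summed superoxide dismutases were 2.25 to 2.91 times the summed catalase and glutathione peroxidases in immortalized cells at atmospheric oxygen, and 0.428 to 0.827 times in all other libraries. The lowest of these values came from transformed replicate b at 3% oxygen, where the short transcript GPX4-205 held most of GPX4, and with transcripts of at least 400 nt alone it was 1.23.

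The transcripts SOD2-203, SOD2-215 and SOD2-209 together held over 80% of SOD2 in every library. SOD2-203, a protein-coding transcript of 990 nt, was 1014 and 931 TPM in immortalized cells at atmospheric oxygen and 61.8 and 54.8 TPM at 3% oxygen. SOD2-215, annotated as a target of nonsense-mediated decay and 4302 nt long, was 865 and 619.6 TPM against 72.4 and 62.7 TPM. Both moved with the summed value. SOD2-209, of 507 nt, was 242 and 129.6 TPM against 35.6 and 18.8 TPM. SOD2-209 starts within WTAP, a gene on the opposite strand whose exons share 437 bases with those of SOD2 and which ranged from 70.6 to 241 TPM over the 16 libraries. Quantification with default parameters did not use strand, so reads of the 2 genes cannot be told apart in those bases. With protein-coding transcripts alone, the oxygen effect was -3.73, adjusted p = 0.000536, in immortalized cells and 1.78, adjusted p = 0.0195, in transformed cells.

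The start of SOD2-203 and SOD2-215 lies in the following promoter window of 300 bases (250 before and 50 after the RefSeq start, from the RefSeq table for GRCh38.p14, and matched exactly to chr6:160114224-160114523 of GRCh37, minus strand). It is shown because SOD2 was the member called in most comparisons of oxygen; capitals mark any GCGTG, the core of a hypoxia response element, read on either strand, of which it holds 1 on the opposite strand.
SOD2 promoter: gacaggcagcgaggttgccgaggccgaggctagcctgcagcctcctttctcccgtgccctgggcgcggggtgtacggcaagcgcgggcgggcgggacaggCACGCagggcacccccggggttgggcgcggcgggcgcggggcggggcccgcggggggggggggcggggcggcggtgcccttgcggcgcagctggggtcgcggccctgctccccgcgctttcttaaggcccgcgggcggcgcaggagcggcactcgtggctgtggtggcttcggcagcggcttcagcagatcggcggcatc
It holds no ACGTG, no TGACNNNGC (the core of the antioxidant response element bound by NRF2) and no consensus NF-kB site on either strand. The window holds 40 CpG dinucleotides, above the 37.0 found at the 90th percentile of all windows. Promoter windows were matched for 8 of the 9 members (13 windows, not SOD1). Of these windows, 8 of 13 held a GCGTG and 4 of 13 an ACGTG, in 4 and 3 of the 8 members, against 36.5% and 21.4% of all 35116 windows, and windows of 1 gene can overlap. None of the 13 had a TGACNNNGC (13.3% of all windows) or an NF-kB site (7.73%). A match is a description of the letters in the window and no match says only that they are not in it.

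SOD3, the secreted superoxide dismutase (chromosome 4, 24791534 to 24802464), was among the least expressed members and was called on 1 step, from immortalized to transformed cells at atmospheric oxygen. It was 12.7 and 14.1 TPM in primary cells and 10.2 and 13.8 TPM in immortalized cells at atmospheric oxygen, and 2.31 and 1.76 TPM in transformed cells and 2.40 and 2.56 TPM in metastasizing cells. The earlier 2 stages were thus above the later 2, and SOD3 fell by 2.30 (log2, adjusted p = 0.004) between them; without any one of the 4 libraries the adjusted p was 0.014 to 0.0299, over the threshold. At 3% oxygen the values were 16.9 and 5.04 TPM in primary, 2.27 and 2.18 TPM in immortalized, 2.26 and 6.14 TPM in transformed and 3.26 and 1.09 TPM in metastasizing cells, with a gap of over 2-fold between the 2 libraries in 3 of the 4 groups. In immortalized cells both 3% libraries were below both atmospheric ones (-2.19 ± 0.54 (SE), adjusted p = 0.0133), a difference that missed the threshold.

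Part of this spread came from 1 short transcript model. SOD3-203, of 276 nt, held 11.0 of 16.9 TPM in primary replicate a at 3% oxygen and 0 in replicate b, and 5.53 of 6.14 TPM in transformed replicate b at 3% oxygen. It is shorter than the average library insert in 15 of the 16 libraries, which ranged from 263.74 to 364 bases in the labels. With transcripts of at least 400 nt alone, SOD3 was 5.90 and 5.04 TPM in primary cells at 3% oxygen, and the replicates there no longer differed by 2-fold. In metastasizing cells SOD3 was 1.35 and 1.18 TPM at atmospheric oxygen and 0.325 and 1.09 TPM at 3% oxygen in that setting. The oxygen effect was then called in primary cells (-1.22, adjusted p = 0.009) and in immortalized cells (-2.19, adjusted p = 0.000351), lower at 3% oxygen in both. On the step from immortalized to transformed cells at 3% oxygen the sign turned, from 0.65 over all transcripts to -1.09, adjusted p = 0.009, past both thresholds. The oxygen difference in transformed cells turned as well, from 0.76 to -0.97, adjusted p = 0.0208. Transformed cells at 3% oxygen then had 0.981 and 0.611 TPM, so SOD3 passed the filter of 1 TPM only through the other group of each comparison.

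CAT, the peroxisomal catalase (chromosome 11, 34460481 to 34493607), had the narrowest range of the 9 genes and was not called in any comparison. It was 54.5 and 52.0 TPM in primary cells at atmospheric oxygen and 32.7 and 32.0 TPM at 3% oxygen, 2 pairs that did not overlap and lay close together within each level. The difference, -0.71 ± 0.23 (SE), adjusted p = 0.0429, stayed under 2-fold. In immortalized cells the order was the reverse, 39.7 and 39.0 TPM at atmospheric oxygen against 44.7 and 48.0 TPM at 3% oxygen, and the difference of the 2 oxygen effects was 0.94 ± 0.33 (SE), adjusted p = 0.114. In transformed cells CAT was 41.0 and 39.3 TPM against 35.0 and 28.9 TPM, and in metastasizing cells 45.1 and 46.4 TPM against 19.8 and 39.6 TPM. The metastasizing difference, -0.70 ± 0.23 (SE), adjusted p = 0.0441, depended on 1 library: without replicate b at 3% oxygen, the higher one, it was -1.19, adjusted p = 5.92e-05, past both thresholds.

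GPX1, the abundant cytosolic and mitochondrial selenoenzyme (chromosome 3, 49394607 to 49396038, minus strand), was not called in any comparison, and all 7 neighbouring pairs in its order of group means overlapped. It was 73.7 and 134 TPM in primary cells at atmospheric oxygen against 48.0 and 23.4 TPM at 3% oxygen. Both 3% libraries were lower, and the difference missed the threshold (-1.56 ± 0.49 (SE), adjusted p = 0.0381). In immortalized cells it was 41.2 and 88.2 TPM against 57.0 and 43.9 TPM and in metastasizing cells 63.9 and 43.0 TPM against 41.5 and 87.1 TPM, both pairs overlapping. In transformed cells 112 and 80.6 TPM stood against 45.2 and 72.0 TPM (-0.73 ± 0.49 (SE), adjusted p = 0.273). Of the 14 transcripts annotated for GPX1 in GENCODE, 3 were matched in the deposited table, and its 2 processed pseudogenes GPX1P1 and GPX1P2 reached 1.46 and 0.40 TPM, so that reads shared with them could have been split.

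GPX3, the secreted plasma form (chromosome 5, 150400152 to 150408549), was low throughout, between 1.52 and 10.6 TPM, and was called on 1 step over all transcripts. It was 4.85 and 4.16 TPM in primary, 3.92 and 1.52 TPM in immortalized, 7.03 and 7.22 TPM in transformed and 5.01 and 2.97 TPM in metastasizing cells at atmospheric oxygen. It rose from immortalized to transformed cells (1.35 ± 0.35 (SE), adjusted p = 0.00694). Without immortalized replicate b, the lowest library, the step was 0.79, adjusted p = 0.0736, and without either transformed library the adjusted p was 0.0327 or 0.0359. At 3% oxygen the 4 stages had 6.47 and 5.91, 3.35 and 3.91, 5.70 and 8.37 and 7.10 and 10.6 TPM in the same order. The oxygen difference in metastasizing cells, 1.07 ± 0.35 (SE), adjusted p = 0.0424, was higher in both libraries at 3% oxygen and missed the threshold. GPX3-204, of 316 nt, held up to 61.9% of GPX3 in a library, and with transcripts of at least 400 nt alone the metastasizing difference was 1.37, adjusted p = 0.00717. In that setting GPX3 was also called lower from primary to immortalized cells at atmospheric oxygen (-1.25, adjusted p = 0.00826). With protein-coding transcripts alone neither was called (1.03, adjusted p = 0.0432, and -0.92, adjusted p = 0.0548, in that order). GPX3-204 is shorter than the average insert in only 6 of the 16 libraries.

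GPX4, which reduces peroxides of membrane lipids and guards against ferroptosis (chromosome 19, 1103981 to 1106790), was not called over all transcripts. It was called lower at 3% oxygen in primary cells once 1 short transcript model was left out. It was 342 and 303 TPM in primary cells at atmospheric oxygen against 133 and 115 TPM at 3% oxygen, and 494 and 500.5 TPM against 293 and 284 TPM in immortalized cells. Neither pair overlapped, and replicates lay close together. In transformed cells it was 294 and 289 TPM against 335 and 1414 TPM, and in metastasizing cells 354 and 268 TPM against 234 and 295 TPM. Replicate b of transformed cells at 3% oxygen thus held 4.22 times the value of replicate a, and since all groups share 1 estimate of the spread, GPX4 had a standard error of 0.46 in every oxygen comparison. The oxygen differences over all transcripts were -1.38 ± 0.46 (SE), adjusted p = 0.0485, in primary cells, -0.79 ± 0.46 (SE), adjusted p = 0.233, in immortalized cells, and 1.24 ± 0.46 (SE), adjusted p = 0.0596, in transformed cells.

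In that library 1061 of 1414 TPM were assigned to GPX4-205, a retained-intron transcript with a whole length of 274 nt, which was at most 10.3 TPM in the other 15 libraries. Its sequence, from GENCODE on GRCh37 (chr19:1105252-1105672, plus strand, spliced), is shown because it held 75.0% of the GPX4 value of that library; capitals mark the 85 bases that lie in no exon of the main transcript GPX4-201.
GPX4-205: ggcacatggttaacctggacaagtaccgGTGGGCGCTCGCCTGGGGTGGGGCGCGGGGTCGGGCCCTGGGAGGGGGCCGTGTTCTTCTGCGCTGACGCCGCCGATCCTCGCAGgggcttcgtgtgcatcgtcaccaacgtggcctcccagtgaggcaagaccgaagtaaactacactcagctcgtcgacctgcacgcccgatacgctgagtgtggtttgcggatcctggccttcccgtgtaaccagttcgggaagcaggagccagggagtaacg
The other 189 bases are shared with GPX4-201, so that reads of both transcripts can carry the same letters. It is shorter than the average insert in 15 of the 16 libraries. With transcripts of at least 400 nt alone, GPX4 in transformed cells at 3% oxygen was 325 and 353 TPM. The oxygen difference was then -1.38, adjusted p = 5.56e-05, in primary cells, past both thresholds, and -0.77, adjusted p = 0.00185, in immortalized cells, under 2-fold. In transformed cells it was 0.22, adjusted p = 0.229 and in metastasizing cells -0.21, adjusted p = 0.249. The step from primary to immortalized cells at 3% oxygen was also called in that setting (1.22, adjusted p = 5.20e-05), and with protein-coding transcripts alone both of these calls were made as well (-1.38, adjusted p = 8.38e-05, and 1.22, adjusted p = 7.08e-05).

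**Figure D4:**
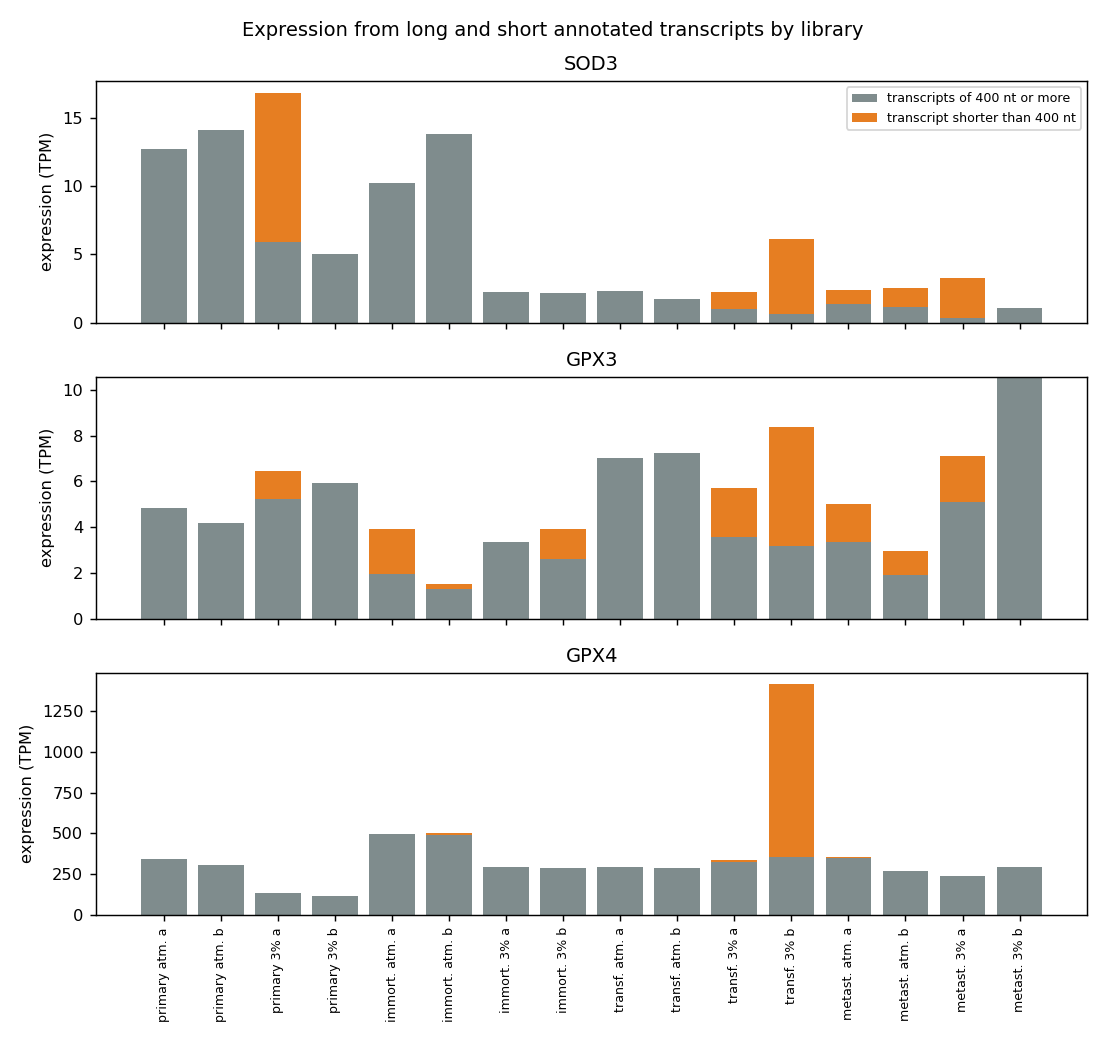
Expression in TPM (vertical axes, from 0) of SOD3, GPX3 and GPX4 in each of the 16 libraries (horizontal axis), with transcripts of 400 nt or more in grey and the 1 shorter transcript of each gene in orange. The orange part reaches 1061 TPM for GPX4 and 5.53 TPM for SOD3 in transformed replicate b at 3% oxygen, and 11.0 TPM for SOD3 in primary replicate a at 3% oxygen.

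GPX7, a peroxidase of the endoplasmic reticulum (chromosome 1, 53068043 to 53074723), was nearly absent from immortalized cells. It was 37.0 and 30.7 TPM in primary cells at atmospheric oxygen and 30.9 and 27.7 TPM at 3% oxygen, and 0.763 and 0.519 TPM and 1.01 and 0.848 TPM in immortalized cells. Transformed cells had 13.8 and 13.4 TPM at atmospheric and 11.2 and 9.58 TPM at 3% oxygen, and metastasizing cells 14.9 and 14.5 and 9.77 and 11.2 TPM, between the 2 earlier stages and with no overlap with either. GPX7 fell from primary to immortalized cells by 4.91 at atmospheric oxygen (adjusted p = 9.04e-09) and fell by 4.38 at 3% oxygen (adjusted p = 3.19e-08), and rose from immortalized to transformed cells by 3.64 (adjusted p = 4.14e-08) and 2.93 (adjusted p = 2.47e-07), all on the log2 scale. The 4 calls held in every alternative fit and without any one library. The low immortalized values passed the filter only through the other group of each step, and the size of the change depends on the pseudocount of 0.5.

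Between oxygen levels GPX7 was not called. Both 3% libraries lay under both atmospheric ones in transformed cells (-0.37 ± 0.16 (SE), adjusted p = 0.0966) and in metastasizing cells (-0.47 ± 0.16 (SE), adjusted p = 0.0502), by less than 2-fold. The promoter window of GPX7 (chr1:53067793-53068092 of GRCh37, plus strand, matched exactly from the RefSeq table) is shown as that of the member with the widest ratio between group means; it has none of the 4 motifs and therefore no capitals.
GPX7 promoter: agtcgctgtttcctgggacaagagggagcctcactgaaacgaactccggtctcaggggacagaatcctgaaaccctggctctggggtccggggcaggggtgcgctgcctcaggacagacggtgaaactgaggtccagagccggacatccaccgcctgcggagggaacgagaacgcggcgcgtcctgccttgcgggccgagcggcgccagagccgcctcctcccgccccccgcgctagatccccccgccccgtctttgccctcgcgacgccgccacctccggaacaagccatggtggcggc
It holds 30 CpG dinucleotides against a median of 14.0 over all windows.

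GPX8, the other peroxidase of the endoplasmic reticulum (chromosome 5, 54455995 to 54463125), did not follow GPX7. It was 246 and 229 TPM in primary and 244 and 252 TPM in immortalized cells at atmospheric oxygen, and 208 and 214 TPM and 271 and 257 TPM at 3% oxygen. In transformed cells it was 108 and 97.9 TPM at atmospheric and 113 and 93.1 TPM at 3% oxygen, below every library of the 2 earlier stages. GPX8 fell from immortalized to transformed cells at both oxygen levels, by 1.26 (log2, adjusted p = 7.86e-05) at atmospheric and fell by 1.36 (adjusted p = 8.34e-05) at 3% oxygen, and both calls held without any one library. In metastasizing cells it was 202 and 221 TPM at atmospheric oxygen, higher than in transformed cells (1.04 ± 0.17 (SE), adjusted p = 0.00176), and 90.7 and 141 TPM at 3% oxygen. The step at atmospheric oxygen was close to 2-fold: with median-ratio rescaling it was 0.97, adjusted p = 0.00109, and without any one of the 4 libraries it was not called (adjusted p 0.0107 to 0.0222). The oxygen difference in metastasizing cells, -0.90 ± 0.17 (SE), adjusted p = 0.0029, passed the adjusted p but was under 2-fold, and without replicate b at 3% oxygen it was -1.22, adjusted p = 5.88e-05, past both thresholds.

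The promoter window of GPX8 (chr5:54455749-54456048 of GRCh37, plus strand) is shown for contrast with that of GPX7; it too has none of the 4 motifs.
GPX8 promoter: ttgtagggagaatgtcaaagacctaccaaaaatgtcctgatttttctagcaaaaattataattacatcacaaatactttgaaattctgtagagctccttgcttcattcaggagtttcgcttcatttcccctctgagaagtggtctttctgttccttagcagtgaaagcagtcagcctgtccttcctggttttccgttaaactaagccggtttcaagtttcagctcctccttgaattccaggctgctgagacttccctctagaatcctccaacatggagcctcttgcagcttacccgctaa
It holds 4 CpG dinucleotides, against 30 in the GPX7 window, and 43.0% of its bases are G or C against 69.0%.

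Genes that supply these enzymes or share their substrates were examined in the same fits, in which 4.91% to 7.66% of all genes tested were called between oxygen levels. Of the 6 peroxiredoxins, the thiol peroxidases that take most cytosolic peroxide, none was called in any of the 4 stages by limma, although 16 of 24 tests had an unadjusted p under 0.05 (39.0% to 45.2% of all genes tested). The oxygen effects of 2 differed between stages, with PRDX6 higher in immortalized than in primary cells (1.02 ± 0.15 (SE), adjusted p = 0.00271) and PRDX5 higher in transformed than in immortalized cells (1.26 ± 0.18 (SE), adjusted p = 0.000472). On these differences 1.86% and 12.0% of all genes tested were called, in that order. Of the 4 genes for copper delivery, among them the SOD1 chaperone CCS, 3 were tested and none was called (7 of 12 tests under an unadjusted p of 0.05), and the same held for the 6 genes of selenocysteine insertion (5 of 21 tests). In the oxygen comparisons 39.0% to 45.2% of all genes tested were under that unadjusted p.

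In the thioredoxin system, TXNIP, which binds and inhibits thioredoxin, was higher at 3% oxygen in primary cells (76.9 ± 7.51 TPM against 25.8 ± 5.16 TPM, SD, n = 2, 1.57 ± 0.17 (SE), adjusted p = 0.000137) and lower in transformed cells (1.56 ± 0.299 TPM against 27.1 ± 2.25 TPM, -3.74 ± 0.17 (SE), adjusted p = 8.93e-07). SRXN1, which repairs overoxidized peroxiredoxins, was higher at 3% oxygen in metastasizing cells (1.59 ± 0.24 (SE), adjusted p = 0.000944). The other 5 genes of the list, with TXN among them, were not called in any stage. The difference in oxygen effect was lower for TXNIP between transformed and immortalized cells (-4.73 ± 0.24) and higher for TXNIP (3.49 ± 0.24), SRXN1 (1.99 ± 0.35) and TXN (1.15 ± 0.13) between metastasizing and transformed cells (adjusted p under the threshold in each). On these differences 12.0% and 8.47% of all genes tested were called, in that order. Of 7 genes of glutathione supply, GCLM, the modifier subunit of the enzyme that starts glutathione synthesis, was higher at 3% oxygen in primary cells (1.07 ± 0.13 (SE), adjusted p = 0.00034) and the cystine transporter SLC7A11 in transformed cells (2.36 ± 0.38 (SE), adjusted p = 0.00104). The oxygen effect of GLRX was higher in transformed than in immortalized cells (1.36 ± 0.23 (SE), adjusted p = 0.00143), and that of GCLM was higher in metastasizing than in transformed cells (1.12 ± 0.19 (SE), adjusted p = 0.00201).

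Of 8 genes of the NRF2 pathway, which induces many antioxidant genes, 3 were lower at 3% oxygen in primary cells, 2 in immortalized cells, 2 in transformed cells and 0 in metastasizing cells (5 under an unadjusted p of 0.05 there, against 41.0% of all genes), and none was higher in any stage. Of all genes tested, 2.52%, 2.78%, 2.58% and 4.60% were called lower in these 4 stages. NQO1, a quinone reductase, was 274 ± 52.7 TPM against 583 ± 16.6 TPM (SD, n = 2) in primary cells (-1.10 ± 0.17 (SE), adjusted p = 0.00115) and 122 ± 23.9 TPM against 342 ± 10.9 TPM in transformed cells (-1.49 ± 0.17 (SE), adjusted p = 0.000144). OSGIN1 was lower in transformed cells (-1.14 ± 0.23 (SE), adjusted p = 0.00347). The ferritin genes FTH1 and FTL were lower at 3% oxygen in primary cells (-1.14 ± 0.17 and -1.52 ± 0.14) and in immortalized cells (-1.80 ± 0.17 and -1.04 ± 0.14), but both have many near-identical pseudogene copies and their values are uncertain for that. The oxygen effect of NQO1 was higher in immortalized than in primary cells (1.39 ± 0.24) and lower in transformed than in immortalized cells (-1.78 ± 0.24), where those of FTH1 (2.30 ± 0.24) and FTL (1.18 ± 0.19) were higher. Between metastasizing and transformed cells that of OSGIN1 was higher (1.81 ± 0.33) and that of FTH1 lower (-1.09 ± 0.24). Of all genes tested, 1.86% were called on the difference between immortalized and primary cells. The share was 12.0% between transformed and immortalized cells and 8.47% between metastasizing and transformed cells. Of 8 sources of superoxide and peroxide, XDH, xanthine dehydrogenase, was higher at 3% oxygen in primary cells (14.7 ± 0.800 TPM against 0.959 ± 0.440 TPM, 3.42 ± 0.28 (SE), adjusted p = 3.31e-05) and immortalized cells (1.57 ± 0.28 (SE), adjusted p = 0.0025), and ERO1A, the oxidase of the endoplasmic reticulum, in primary cells (1.35 ± 0.15 (SE), adjusted p = 0.000174). In primary cells the atmospheric mean of XDH was under 1 TPM, so the gene passed the filter only through the 3% group. The size of the XDH change in primary cells depends on the pseudocount.

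SOD2 is a known target of NF-kB, and genes of an NF-kB list were called lower at 3% oxygen in immortalized cells and higher in transformed cells, as SOD2 was. The study itself examines SOD2 and NF-kB in these samples, so the list is not independent evidence of a direction. Of 11 such genes, 6 were lower at 3% oxygen in immortalized cells (BIRC3, CXCL1, CXCL8, ICAM1, IL6 and NFKBIA), against 2.78% of all genes called lower, and the median over the 11 was -1.51, beside 0.11 over all genes tested. In transformed cells 3 were higher (BIRC3, CXCL8 and ICAM1), against 4.90% of all genes, with a median of 1.34 beside 0.01. In primary cells 0 were called (4 under an unadjusted p of 0.05, against 39.0% of all genes, median 0.22 beside 0.08). In metastasizing cells only ICAM1 was called, and higher, against 7.66% of all genes called in either direction, with a median of 0.62 beside -0.13. CXCL8, a neutrophil chemokine, was 3653 and 2324 TPM in immortalized cells at atmospheric oxygen and 98.0 and 73.3 TPM at 3% oxygen (-5.10 ± 0.75 (SE), adjusted p = 0.000881). In transformed cells it was 31.6 and 31.1 TPM against 191 and 1385 TPM (4.02 ± 0.75 (SE), adjusted p = 0.00225). As for SOD2, the second of the 3% libraries of transformed cells had the higher value. IL6, an inflammatory cytokine, was 2146 and 1339 TPM against 149 and 118 TPM in immortalized cells (-3.67 ± 0.71 (SE), adjusted p = 0.00379). NFKBIA, the inhibitor that holds NF-kB in the cytosol, was 210.4 and 183 TPM against 71.1 and 61.1 TPM there (-1.57 ± 0.28 (SE), adjusted p = 0.0025). In immortalized cells the log2 fold change was -1.43 ± 0.32 for BIRC3, an inhibitor of apoptosis, -1.16 ± 0.26 for the adhesion molecule ICAM1 and -4.41 ± 0.91 for the chemokine CXCL1, and in transformed cells 1.34 ± 0.32 for BIRC3 and 2.28 ± 0.26 for ICAM1 (± SE). ICAM1 in metastasizing cells was 59.4 and 48.9 TPM at atmospheric against 190.2 and 135 TPM at 3% oxygen (1.56 ± 0.26 (SE), adjusted p = 0.00136).

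The difference in oxygen effect between transformed and immortalized cells was called for 7 of the 11 (BIRC3, CXCL1, CXCL8, ICAM1, IL6, NFKB2 and NFKBIA), all higher, against 6.13% of all genes called higher, with 9.11 ± 1.06 for CXCL8 and 1.73 ± 0.30 for NFKB2 beside 5.54 ± 0.64 for SOD2. Between immortalized and primary cells it was called for CXCL8 (-7.03 ± 1.06), against 1.86% of all genes. Between metastasizing and transformed cells it was called for none (median -0.72), against 8.47% of all genes. Both lists of calls rest on the same immortalized libraries as SOD2, and whether SOD2 and these genes have a common cause was not tested. Among fibroblast markers, DCN was lower and FN1 higher at 3% oxygen in immortalized cells, PDGFRB was lower in primary cells, COL1A1 in transformed cells, and COL1A2, COL3A1, DCN and PDGFRB in metastasizing cells, the group with the widest replicate error. Their part in the results for the 9 genes was not tested.

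**Figure D5:**
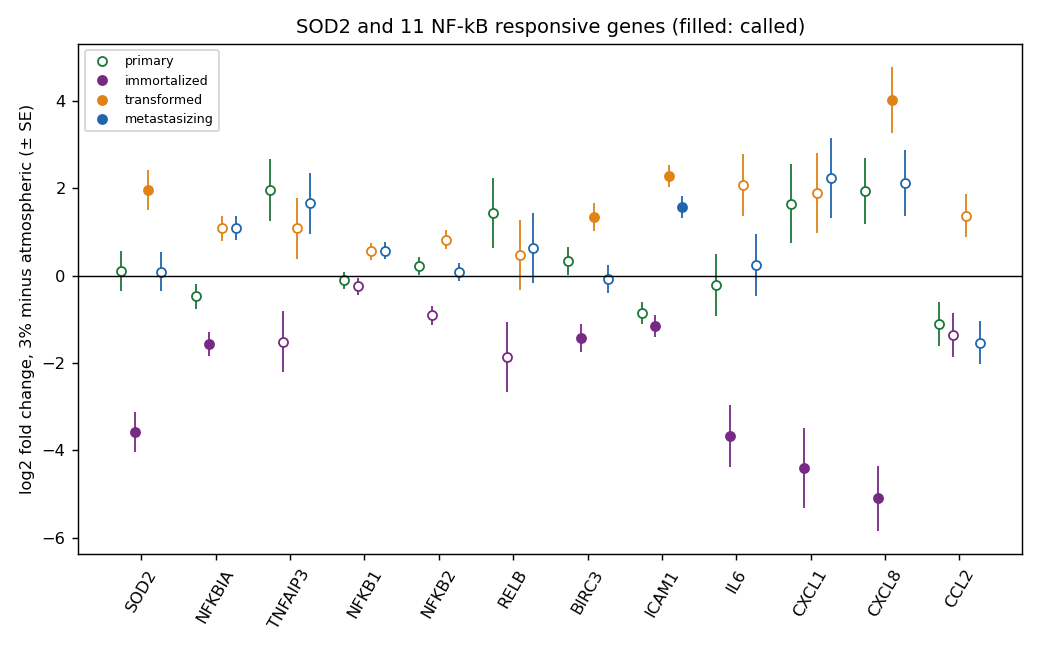
Log2 fold change between 3% and atmospheric oxygen (vertical axis, ± SE) of SOD2 and 11 NF-kB responsive genes (horizontal axis) in the 4 stages; filled points were called. The called points in immortalized cells lie below 0, from -1.16 for ICAM1 to -5.10 for CXCL8, and those in transformed cells above 0, up to 4.02 for CXCL8.

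The protein-coding genes whose levels over the 16 libraries were most like those of the 2 members with the widest span were found by Pearson correlation on log2(TPM + 0.5) among 10987 genes of at least 5 TPM in a group; the libraries share their groups, so the values are a description. For SOD2 they were ETS2, a transcription factor (r = 0.964), IQCD (0.958) and WTAP (0.949), the gene that overlaps SOD2. ETS2 was 125 and 97.2 TPM in immortalized cells at atmospheric oxygen and between 26.8 and 59.8 TPM elsewhere. For GPX7 they were EMILIN2, an extracellular matrix protein (0.984), SLC25A4, the mitochondrial carrier of ADP and ATP (0.974), and RAB18, a small GTPase (0.966). EMILIN2 was at most 0.275 TPM in the 4 immortalized libraries and 22.4 and 27.8 TPM in primary cells at atmospheric oxygen.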

How the data were processed

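RNA of 16 cultures of the human fibroblast cell line BJ was sequenced by the authors as poly-A selected, stranded libraries. Per the labels and the methods, the authors estimated transcript abundance with kallisto 0.42.1 at its default settings, which do not use strand, on GRCh37, and deposited TPM per transcript. The annotation release is not given in the sources used here, and TPM keeps no depth. Transcripts were summed per gene with GENCODE 44 lifted to GRCh37, which matched 151453 of 180253 transcripts holding 88.2% to 90.1% of TPM. Unmatched transcripts were not used.

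limma 3.58.1 (R 4.3.3) was run on log2(TPM + 0.5) with 8 group coefficients and an intensity trend, on protein-coding genes whose mean reached 1 TPM in either group, with Benjamini-Hochberg adjustment over those genes. A call required an adjusted p under 0.01 and a log2 change over 1. The 13 comparisons were 3% minus atmospheric oxygen in each stage, later minus earlier stage at each oxygen level, and differences between oxygen effects of successive stages. An exact permutation test of 2 against 2 libraries cannot go below p = 0.333 and was not used. The fit was tested on simulated data.

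Alternatives were pseudocounts of 0.1 and 1, no filter, a filter of 5 TPM, median-ratio rescaling, only the groups compared, a replicate block, no trend, all genes, protein-coding transcripts alone and each library left out. Transcripts of at least 400 nt and a crossed replicate block were added after the data were seen. The members and gene lists were chosen with earlier results of these data known. All 9 members are named, and list genes are named where called. Same-lettered replicates deviated together with a correlation between -0.169 and 0.246, so the letters were not taken to pair the samples. Promoter windows came from the RefSeq table (GRCh38.p14) and were placed on GRCh37 by exact match. The result of 1 list gene is not reported here.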

Additional observations from a re-analysis of the deposited data

Results flagged for a closer look

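The SOD2 response to oxygen differed between stages by a test of the difference itself in the limma fit. The log2 oxygen effect in immortalized cells minus that in primary cells was -3.69 (adjusted p = 0.00702), and the effect in transformed cells minus that in immortalized cells was 5.54 (adjusted p = 0.000159). Both share the 4 immortalized libraries. The first was lost on leaving out any one of its 8 libraries, and the second was kept without each of them.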

How the results depend on the processing

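Of the 15 member values called, 207 of 239 recomputed values kept the call, 32 lost it and 0 turned sign, and of 1635 recomputed values of the results not called, 26 passed the thresholds in the same direction and 1 in the opposite one. Leaving out 1 library, with a lone sample assumed to vary like the other groups, gave these lowest and highest counts of called members: primary oxygen 0 to 0, primary to immortalized (atmospheric) 2 to 2, immortalized minus primary 0 to 0, primary to immortalized (3%) 1 to 2, immortalized oxygen 1 to 1, immortalized to transformed (atmospheric) 3 to 4, transformed minus immortalized 1 to 3, immortalized to transformed (3%) 2 to 4, transformed oxygen 0 to 2, transformed to metastasizing (atmospheric) 0 to 0, metastasizing minus transformed 0 to 2, transformed to metastasizing (3%) 0 to 2 and metastasizing oxygen 0 to 2. With no filter on low values, the count was 0 instead of 1 for transformed oxygen and 0 instead of 1 for immortalized minus primary. With median-ratio rescaling, the count was 0 instead of 1 for transformed to metastasizing (atmospheric). With only the groups compared, the count was 0 instead of 1 for transformed oxygen, 2 instead of 1 for transformed to metastasizing (atmospheric), 3 instead of 1 for primary to immortalized (3%) and 2 instead of 1 for transformed minus immortalized. With no trend, the count was 0 instead of 1 for transformed oxygen and 0 instead of 1 for immortalized minus primary. With only protein-coding transcripts, the count was 1 instead of 0 for primary oxygen, 0 instead of 1 for transformed oxygen and 2 instead of 1 for primary to immortalized (3%). With only transcripts of at least 400 nt, the count was 2 instead of 0 for primary oxygen, 2 instead of 1 for immortalized oxygen, 1 instead of 0 for metastasizing oxygen, 2 instead of 1 for primary to immortalized (3%) and 1 instead of 0 for metastasizing minus transformed. It was also 3 instead of 2 for primary to immortalized (atmospheric) and 3 instead of 2 for immortalized to transformed (3%). The replicate block left the count of called members the same in all 13 comparisons (0 of 9 in the primary oxygen comparison, 1 of 8 in the immortalized, 1 in the transformed and 0 in the metastasizing), and the crossed block gave 0 for primary oxygen, 1 for immortalized oxygen, 0 for metastasizing oxygen and 5 for immortalized to transformed (atmospheric), the 4 comparisons it was run in. Values that were not called turned sign 48 times over 32 results, so their direction is not stable. With median-ratio rescaling they were -0.079 for SOD1, immortalized oxygen, -0.031 for GPX8, immortalized oxygen, 0.052 for SOD1, metastasizing oxygen, -0.18 for CAT, immortalized to transformed (atmospheric), 0.022 for GPX8, transformed minus immortalized and 0.029 for GPX7, metastasizing minus transformed. With only protein-coding transcripts they were -0.15 for SOD2, metastasizing oxygen, -0.0092 for CAT, immortalized to transformed (atmospheric) and -0.039 for GPX7, transformed to metastasizing (3%). With only transcripts of at least 400 nt they were -0.97 for SOD3, transformed oxygen, 0.0060 for GPX8, transformed oxygen, -0.51 for SOD3, transformed to metastasizing (atmospheric), -1.09 for SOD3, immortalized to transformed (3%) and 0.35 for SOD3, metastasizing minus transformed. Without 1 library at a time they ranged from -0.52 to 0.61 for GPX3, immortalized minus primary, -1.33 to 0.32 for SOD3, primary oxygen, -0.0012 to 0.091 for SOD1, immortalized oxygen, -0.37 to 0.043 for SOD3, primary to immortalized (atmospheric), -1.01 to 0.081 for GPX1, transformed minus immortalized, -0.81 to 0.28 for GPX1, immortalized oxygen, -0.10 to 1.03 for GPX3, immortalized oxygen, -1.07 to 0.062 for GPX3, transformed minus immortalized, -0.14 to 0.13 for GPX8, transformed oxygen, -0.0014 to 0.059 for CAT, immortalized to transformed (atmospheric), -0.30 to 0.22 for GPX3, transformed oxygen, -0.45 to 0.61 for GPX1, transformed to metastasizing (3%), -0.21 to 0.012 for GPX7, metastasizing minus transformed, -0.079 to 1.68 for SOD2, immortalized to transformed (3%), -0.15 to 0.52 for GPX1, immortalized to transformed (3%), -1.60 to 0.17 for SOD2, transformed to metastasizing (3%), -0.098 to 0.12 for GPX7, transformed to metastasizing (3%), -0.23 to 0.041 for GPX8, transformed minus immortalized, -0.12 to 0.28 for GPX4, transformed to metastasizing (atmospheric), -0.33 to 0.73 for GPX1, metastasizing oxygen, -0.44 to 0.28 for SOD1, metastasizing oxygen, -0.67 to 0.31 for CAT, transformed to metastasizing (3%), -0.86 to 0.13 for CAT, metastasizing minus transformed, -0.45 to 0.63 for SOD2, metastasizing oxygen, -0.90 to 0.34 for SOD3, metastasizing oxygen, -0.14 to 0.58 for SOD1, transformed to metastasizing (3%) and -0.18 to 0.46 for GPX8, transformed to metastasizing (3%). Without transformed replicate a at 3% oxygen, GPX4 was called in 5 comparisons and SOD2 newly in 3, and SOD3 in the difference of transformed minus immortalized; without primary replicate b at 3% oxygen SOD3 from primary to immortalized, and without metastasizing replicate b at 3% oxygen CAT and GPX8 in the metastasizing oxygen comparison and GPX8 in the difference of metastasizing minus transformed. In transformed replicate b at 3% oxygen, then alone in its group, short transcripts held most of GPX4 and SOD3. A short transcript also held most of SOD3 in primary replicate a at 3% oxygen. The causes were not tested. Depth is unknown, so counting error is not separated from the spread of 2 plates.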
